A study of Mus musculus with 10 samples.

Results

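Complement transcripts were examined in the aortic arch of mice lacking apolipoprotein E and MyD88 (MyD88-/-, apoE-/-, double-null below) and of mice lacking apolipoprotein E alone (apoE-/-, apoE-null below). The set holds 9 genes, chosen by name with earlier results of these data known: C1qa, C1qb, C1qc, C2, C3, C4b, Cfb, Serping1 and C3ar1. The platform annotation names 1 probe each for 8 of them and none for C3, so C3 was not analysed here. The 8 probes stand among 13872 on the array and among 4866 with enough values to be tested. Each of 10 two-colour arrays held RNA of 1 double-null and 1 apoE-null mouse, and the 5 mouse pairs were each run on an array per dye orientation. In pair 1 both mice were female, in pairs 2, 3 and 4 both were male, and in pair 5 a male double-null mouse was set against a female apoE-null mouse. A high fat diet of 8 weeks is stated for 8 of the arrays, and the other 2 hold mice that also appear on arrays with that statement. Every animal lacked apolipoprotein E, so no animal with an intact Apoe gene entered the comparison, and the labels give neither age nor strain.

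Complement is a cascade of plasma proteins that marks particles and cells for removal. The classical pathway starts when C1q, built from the products of C1qa, C1qb and C1qc, binds antibody or altered surfaces. Its proteases then cleave C4 and C2, and the resulting enzyme cleaves C3. The alternative pathway forms a second C3-cleaving enzyme from factor B, the product of Cfb, and is stabilised by properdin. C1 inhibitor, the product of Serping1, stops the first proteases, and C3ar1 encodes the receptor for the C3a fragment on myeloid cells. The liver makes most plasma complement, but macrophages are the main source of C1q, and complement proteins are found in atherosclerotic plaques. The title of the series links a lack of MyD88 to less atherosclerosis; MyD88 is the adaptor of Toll-like and interleukin-1 receptors. The comparison asks how arterial complement transcripts differ between the genotypes.

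Values are log2 ratios of double-null over apoE-null RNA, so -1 means that the double-null signal was 0.5 times the apoE-null signal. An array gave between 4581 and 7057 values, and its median lay within 0.1 of 0. A pair value is the mean of the arrays of both orientations. Myd88 checked the labels: it was below 0 on 10 of 10 arrays and averaged -0.90 ± 0.22 over pairs (SD, n = 5), with a limma adjusted p of 0.0248. The labels of pair 1 swap the mouse numbers between genotypes from one array to the other, and the stated genotypes were followed. Of the probes for arterial cell markers, 6 of 8 for smooth muscle and 4 of 7 for endothelium had enough values to be tested, but a ratio carries no expression level. Whether a lower ratio reflects fewer cells of a type or less RNA per cell cannot be told apart in whole tissue.

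No complement gene of the set passed the test. The 3 C1q chains and C3ar1 averaged between -0.87 and -0.58 on the log2 scale, C2 averaged 0.38, and C4b, Cfb and Serping1 lay between -0.24 and 0. The adjusted p-values over 4866 probes were between 0.183 for C1qa and 0.999 for Cfb. Of the 4866 probes, limma called 0.781% at an adjusted p under 0.05 in either direction and 0.185% as lower, so 0 calls among 8 members is close to the background. At an unadjusted p under 0.05 the members were 5 of 8, these being the C1q chains, C3ar1 and C2, against 10.0% of the tested probes. The set was chosen with earlier results of these data known and its genes share arrays, so these shares were not tested against each other. The mean was below 0 for 7 of 8 members, against 58.7% of the tested probes. The median over members was -0.41, against -0.04 over the tested probes. The member median was -0.24 without pair 1 and -0.19 without pair 2, each over 7 members. C1qa, the lowest member, had too few pairs to enter either of these medians. Without pair 2 the mean was -0.60 for C1qb, -0.77 for C1qc and -0.69 for C3ar1. Without pair 1 these means were -0.41, -0.46 and -0.49.

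**Figure D1:**
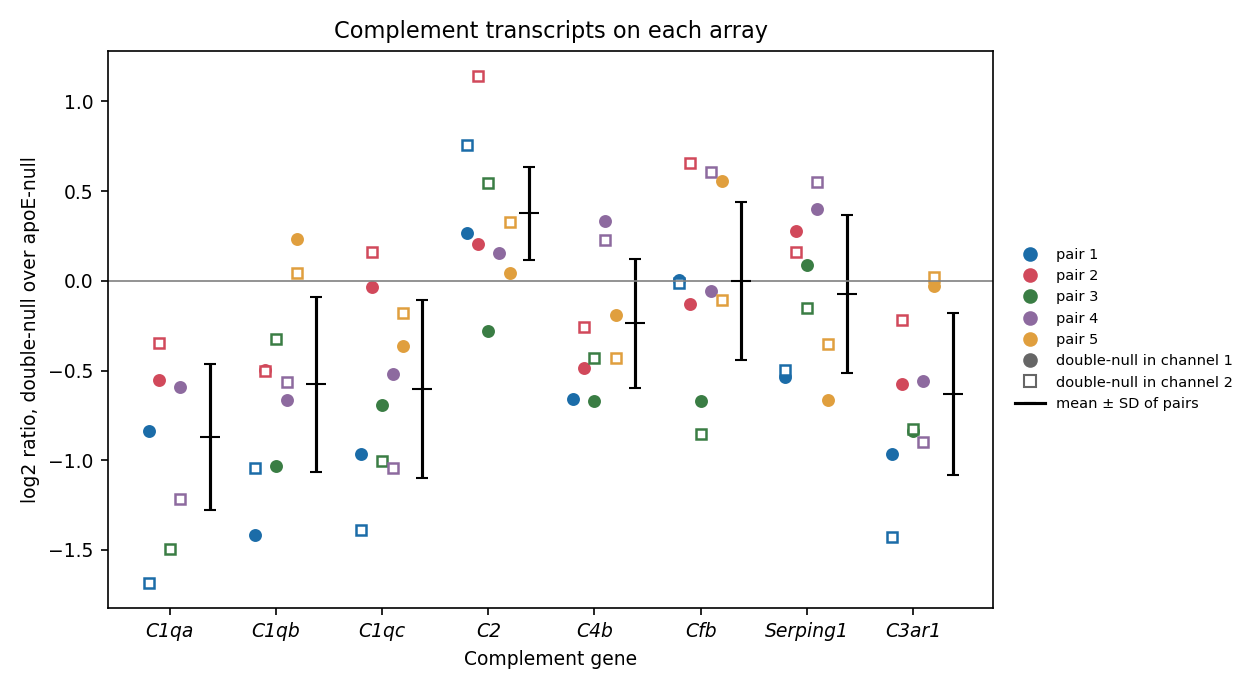
Log2 ratio of double-null over apoE-null RNA (vertical axis) for the 8 measured complement genes (horizontal axis). Each symbol is 1 array, coloured by mouse pair, filled circles with double-null RNA in channel 1 and open squares with it in channel 2; black marks give the mean ± SD of the pair values. C1qa lies below 0 on 7 of 7 arrays, C1qb on 8 of 10, C1qc and C3ar1 on 9 of 10, and C2 on 1 of 9.

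C1qa encodes the A chain of C1q. In pair 1 it read -0.84 with double-null RNA in channel 1 and -1.68 with it in channel 2, in pair 2 it read -0.55 and -0.35, and in pair 4 it read -0.59 and -1.22. In pair 3 only the array with double-null RNA in channel 2 gave a value, -1.50, and pair 5 gave none. C1qa was therefore below 0 on 7 of 7 arrays. Of the tested probes, which differ in their number of values, 1.17% were below 0 on every array with a value. No other member was, but C1qb and C3ar1 were above 0 only on arrays of pair 5, where C1qa was blank. The pair values averaged -0.87 ± 0.41 (SD, n = 3; 95% interval -1.35 to -0.39; adjusted p = 0.183). In a fit to single arrays with a dye term and the pair as a random block, C1qa averaged -0.95 over 7 arrays and passed, at adjusted p = 0.0320, while the same fit without the dye term gave adjusted p = 0.0685. No array of pair 5, the pair of unlike sex, gave a C1qa value.

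C1qb encodes the B chain. With double-null RNA in channel 1 it read -1.42, -0.50, -1.03, -0.66 and 0.23 in pairs 1 to 5, and with it in channel 2 it read -1.04, -0.51, -0.32, -0.56 and 0.04. Pairs 1 to 4 lay below 0 in both orientations and pair 5 above 0 in both. The mean over pairs was -0.58 ± 0.49 (SD, n = 5; 95% interval -0.99 to -0.16; adjusted p = 0.313), a level 1.49-fold lower in double-null aorta that did not pass.

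C1qc encodes the C chain. It read -0.97, -0.03, -0.69, -0.52 and -0.36 with double-null RNA in channel 1, and -1.39, 0.16, -1.01, -1.05 and -0.18 with it in channel 2. Its pair 2 value, 0.06, lay apart from those of C1qa and C1qb in the same mice, -0.45 and -0.50. The mean was -0.60 ± 0.49 (SD, n = 5; 95% interval -1.03 to -0.18; adjusted p = 0.281).

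C3ar1, the C3a receptor gene, read -0.97, -0.57, -0.84, -0.56 and -0.03 with double-null RNA in channel 1, and -1.43, -0.22, -0.82, -0.90 and 0.02 with it in channel 2. All 5 pair values were below 0, although that of pair 5, -0.0042, came from arrays on either side of 0. The mean was -0.63 ± 0.45 (SD, n = 5; 95% interval -1.03 to -0.23; adjusted p = 0.223).

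The C1q genes are immediate neighbours on chromosome 4, in the order C1qb, C1qc and C1qa, and C3ar1 lies on chromosome 6. Sequence before the transcription start is shown for C1qb, C1qc and C3ar1, the genes of this lower group in the RefSeq promoter table (assembly GRCm38.p6). Each stretch is the 250 bases before the start, 5′ to 3′ on the gene's own strand, which is the minus strand for all 3: chr4:136886201-136886450 for C1qb, chr4:136892915-136893164 for C1qc and chr6:122856158-122856407 for C3ar1. Capitals mark matches, on either strand, to 4 motifs.
C1qb: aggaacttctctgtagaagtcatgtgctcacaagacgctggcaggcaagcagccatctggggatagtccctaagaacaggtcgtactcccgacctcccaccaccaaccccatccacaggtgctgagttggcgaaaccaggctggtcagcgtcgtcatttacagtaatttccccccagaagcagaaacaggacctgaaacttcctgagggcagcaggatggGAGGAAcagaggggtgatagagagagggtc
C1qc: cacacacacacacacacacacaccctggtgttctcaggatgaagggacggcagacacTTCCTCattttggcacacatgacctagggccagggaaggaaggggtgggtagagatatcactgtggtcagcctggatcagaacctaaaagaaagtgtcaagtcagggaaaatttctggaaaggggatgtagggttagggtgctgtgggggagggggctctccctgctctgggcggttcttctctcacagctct
C3ar1: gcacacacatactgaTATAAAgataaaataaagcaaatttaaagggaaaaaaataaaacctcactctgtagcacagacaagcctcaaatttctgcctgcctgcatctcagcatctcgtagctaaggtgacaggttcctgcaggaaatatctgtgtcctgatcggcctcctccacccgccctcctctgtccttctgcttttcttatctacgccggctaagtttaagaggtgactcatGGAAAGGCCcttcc
The motifs were GAGGAA, a core bound by ETS factors such as the myeloid factor PU.1, GGNNTTTCC, a form of the NF-kB site, GAAANNGAA, a form of the interferon-stimulated element, and TATAAA, the TATA box. GAGGAA was found once in C1qb, at position -30, and once in C1qc, at position -193, counted back from the base before the start as -1. It is present in 23.3% of 32851 promoter stretches of this length. C3ar1 held no GAGGAA, 1 TATAAA at position -235 (12.4% of stretches) and 1 match to the NF-kB form at position -14 (4.93% of stretches). None of the 3 held the interferon form, which 7.13% of stretches have, and no matches overlapped. These matches describe letters and were not tested against the ratios.

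Macrophage marker ratios lay below 0 as well. Of 26 marker genes, none of them a complement gene of the set, 21 were tested on 22 probes, with a median of -0.46, 20 probes below 0 and none called. The marker median was -1.07, -0.46, -0.74, -0.34 and 0.31 in pairs 1 to 5. The mean difference of C1qb from it was -0.12 ± 0.13 (SD, n = 5 pairs; exact sign-flip permutation test, two-sided, p = 0.1875). For C3ar1 the mean difference was -0.17 ± 0.18 (n = 5 pairs, exact permutation p = 0.125), for C1qc -0.15 ± 0.43 (n = 5 pairs, exact permutation p = 0.375) and for C1qa -0.25 ± 0.29 (n = 3 pairs, exact permutation p = 0.5). With 5 pairs this test cannot go below 0.0625 and with 3 pairs not below 0.25, and 8 such unadjusted comparisons were made. The part of macrophage number in the C1q and C3ar1 ratios was not tested.

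Genes most like these members on the same arrays were named by the smallest root mean square difference in log2 ratio over 10 arrays, among 3297 probes with values on all of them; C1qa, with 7 arrays, was not compared. For C1qb these were Tyrobp, a signalling adaptor of myeloid receptors (0.25), Tbxas1, thromboxane synthase (0.27), and Ctss, a lysosomal protease of antigen-presenting cells (0.27), against a median difference of 0.79 from all of these probes. For C3ar1 they were Tbxas1 (0.20), the leukocyte surface peptide gene Cd52 (0.25) and C1qc (0.26). For C1qc they were C3ar1 (0.26), the lysosomal ATPase gene Atp13a2 (0.29) and P2ry14, a receptor for UDP-glucose (0.29). All of these averages share arrays and RNA, so likeness is a description of these 10 hybridisations.

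**Figure D2:**
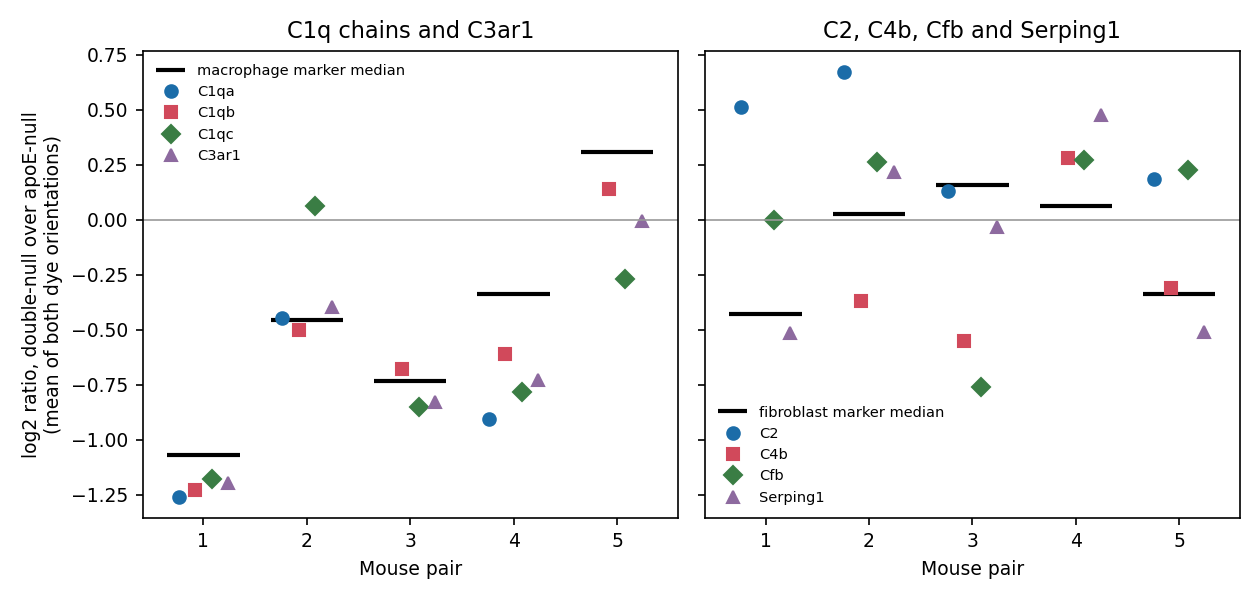
Log2 ratio of double-null over apoE-null RNA (vertical axis, mean of both dye orientations) in each of 5 mouse pairs (horizontal axis). Left, C1q chains and C3ar1 with the median of the macrophage markers as a bar; right, C2, C4b, Cfb and Serping1 with the median of the fibroblast markers as a bar. On the left the marker median ran from -1.07 in pair 1 to 0.31 in pair 5. The pair values of the members were also lowest in pair 1. C1qc was highest in pair 2 (0.06) and was -0.27 in pair 5, and C1qa had no pair value in pairs 3 and 5.

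C2 encodes the protease component of the classical C3-cleaving enzyme. It read 0.27, 0.20, -0.28, 0.16 and 0.05 with double-null RNA in channel 1, and 0.76, 1.14, 0.54 and 0.33 in pairs 1, 2, 3 and 5 with it in channel 2, where pair 4 was blank. Every pair value was above 0, with a mean of 0.38 ± 0.26 (SD, n = 4; 95% interval 0.04 to 0.72; adjusted p = 0.457). Its size differed with the dye orientation: the 5 arrays with channel 1 double-null averaged 0.08, and the 4 with channel 2 double-null averaged 0.69. The dye effect of C2 had an adjusted p of 0.0793, and 4.75% of the tested probes had a dye effect at an adjusted p under 0.05. No member passed that dye test, and for the other 7 the adjusted p was between 0.358 and 0.935.

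C4b encodes the C4 protein that C1 cleaves. It read -0.66, -0.49, -0.67, 0.33 and -0.19 with double-null RNA in channel 1, and -0.26, -0.43, 0.23 and -0.43 in pairs 2 to 5 with it in channel 2, where pair 1 was blank. Pair 4 was above 0 in both orientations and the other pairs were below 0 on every array. The mean over pairs was -0.24 ± 0.36 (SD, n = 4; 95% interval -0.63 to 0.15; adjusted p = 0.632), and it was -0.41 without pair 4 and -0.13 without pair 3. C4a is a close copy of C4b in the mouse, and the probe may read both.

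Cfb encodes factor B, the protease component of the alternative C3-cleaving enzyme and a gene known to be induced by inflammatory cytokines. It read 0.01, -0.13, -0.67, -0.06 and 0.56 with double-null RNA in channel 1, and -0.01, 0.66, -0.85, 0.61 and -0.11 with it in channel 2. The orientations gave opposite signs in pairs 1, 2, 4 and 5. The mean was -0.00056 ± 0.44 (SD, n = 5; adjusted p = 0.999) with a 95% interval of -0.39 to 0.39, and its sign was positive when arrays were centred on their medians (0.031). Without pair 3, which read -0.76, the mean was 0.19. In the list of acute phase and NF-kB target genes, 6 probes were tested, 5 were below 0 and the median was -0.72. Called lower were 2 of the 6, against 0.185% of all tested probes. These were the neutrophil chemokine gene Cxcl1 (mean -1.67, n = 5 pairs) and the lipocalin gene Lcn2 (mean -1.25, n = 3 pairs). That list was chosen with earlier results of these data known. The interferon response list had 6 tested probes, none called and a median of -0.13.

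Serping1 encodes C1 inhibitor, which stromal cells also make. It read -0.54, 0.28, 0.09, 0.40 and -0.67 with double-null RNA in channel 1, and -0.49, 0.16, -0.15, 0.55 and -0.35 with it in channel 2. Arrays of the same pair differed by at most 0.32, and pair values lay between -0.52 in pair 1 and 0.48 in pair 4, with -0.51 in pair 5. The mean was -0.07 ± 0.44 (SD, n = 5; 95% interval -0.46 to 0.32; adjusted p = 0.878), and it was 0.22 in the male pairs 2, 3 and 4 alone. The 8 fibroblast marker probes had medians of -0.43, 0.03, 0.16, 0.06 and -0.34 in pairs 1 to 5. Their means ranged between -0.69 and 0.22, with 5 of 8 below 0. The 6 tested smooth muscle probes had medians of -0.57, -0.26, 0.34, -0.04 and -0.26. These were low in pairs 1, 2 and 5, whereas Serping1 was 0.22 in pair 2. Pdgfra, a fibroblast receptor gene, was the third most like Serping1 (root mean square difference 0.19), after Gdap2 (0.16) and Pip5k1a (0.18), against a median of 0.57 over 3297 probes.

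Set against the macrophage marker median, C2, Cfb, Serping1 and C4b averaged above it. With 4 pairs the smallest p this test allows is 0.125 and with 5 pairs 0.0625, so it could not pass 0.05 for any member. The mean difference was 0.87 ± 0.72 for C2 (n = 4 pairs, exact permutation p = 0.25), 0.46 ± 0.50 for Cfb (n = 5 pairs, exact permutation p = 0.25), 0.39 ± 0.68 for Serping1 (n = 5 pairs, exact permutation p = 0.375) and 0.07 ± 0.51 for C4b (n = 4 pairs, exact permutation p = 0.625). C2 and C4b were each above the marker median in 3 of 4 pairs and Serping1 in 4 of 5, pair 5 being the exception for each. Cfb was above it in 3 of 5 pairs and below it in pairs 3 and 5. In pair 5 the marker median itself was 0.31.

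The genes C2, C4b and Cfb were each most like genes outside the set. For C2, over 9 arrays, these were Uqcc2, an assembly factor of the respiratory chain (0.21), the RNA polymerase II subunit gene Polr2g (0.22) and the glycolytic enzyme gene Pkm (0.23). For C4b they were Myg1 (0.21), the aminopeptidase gene Lap3 (0.22) and the matrix protease gene Mmp9 (0.22). For Cfb they were Smagp (0.35), the T helper cell marker Cd4 (0.36) and the immunoproteasome subunit gene Psmb10 (0.36).

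Pairs differed in sex, and the members were compared across them. In pair 1, the female pair, C1qb was -1.23 against a mean of -0.60 in the male pairs 2, 3 and 4, a difference of -0.63 (95% interval -1.31 to 0.05). For C3ar1 the female minus male difference was -0.55 (-1.27 to 0.18), for C1qc -0.65 (-1.55 to 0.25) and for Cfb 0.07 (-0.90 to 1.04). Serping1 was -0.52 in the female pair against a mean of 0.22 in the male pairs, a difference of -0.74 (-1.47 to -0.00072). None passed, with adjusted p between 0.305 and 0.969, and limma called 0.265% of 3775 probes in this test. With 1 female pair the spread came from the male pairs. Sex cannot be told apart from other differences between pair 1 and those pairs. C1qa, C2 and C4b lacked a value in a pair and were not tested.

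Pair 5, in which sex and genotype cannot be told apart, was also set against pairs 1 to 4. C1qb was 0.14 in pair 5 against a mean of -0.76 in the others, a difference of 0.89 (95% interval 0.07 to 1.72), and C3ar1 was -0.0042 against -0.79, a difference of 0.78 (-0.05 to 1.62). C1qc differed by 0.42 (-0.65 to 1.49) and Cfb by 0.28 (-0.73 to 1.30). Serping1 went the other way, with -0.51 in pair 5 against a mean of 0.04 and a difference of -0.55 (-1.48 to 0.39). All 5 had an adjusted p of 0.996, and limma called 0% of 3612 probes (153 at an unadjusted p under 0.05). Without pair 5 the mean was -0.76 for C1qb, -0.79 for C3ar1 and -0.69 for C1qc, with none called.

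Of 55 gene names considered for other complement genes, synonyms among them, 33 have a probe and 12 were tested, on 13 probes. None was called, and 2 of 13 had an unadjusted p under 0.05, against 10.0% of all tested probes. The mean was below 0 for 8 of 13 (61.5%), close to the 58.7% of all tested probes, and the median was -0.15 against -0.04. Of the 38 probes, 14 had no value on any array, 9 of them for regulators such as C4bp, Vtn and Cd46.

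Cfp, which encodes properdin, the leukocyte-made stabiliser of the alternative C3-cleaving enzyme, had the lowest ratio of the 13 probes. It read -0.89, -0.50, -1.30, -0.81 and 0.19 with double-null RNA in channel 1, and -1.03, -0.53, -0.82, -0.82 and -0.61 with it in channel 2. The array of pair 5 with double-null RNA in channel 1 was the only 1 of 10 above 0. Its mean was -0.71 ± 0.35 (SD, n = 5; 95% interval -1.05 to -0.37), and its adjusted p of 0.0940 was smaller than that of any member of the set and still above the threshold.

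Among initiating components, C1ra, a C1 protease, averaged -0.19 ± 0.18 (n = 4, adjusted p = 0.632), and Fcna, a lectin pathway ficolin made by macrophages, averaged 0.39 ± 0.69 (n = 4, adjusted p = 0.611), each with the SD over pairs. Fcna was above 0 in 3 of 4 pairs and was 1.14 in pair 1, in which the C1q chains were lowest. Its orientation means were 0.64 for channel 1 and 0.13 for channel 2. In the terminal pathway C8g averaged 0.03 ± 0.30 (n = 5, adjusted p = 0.946). Among regulators, Cd59a, which blocks the membrane attack complex, averaged 0.34 ± 0.30 (n = 5, adjusted p = 0.470) and Clu, or clusterin, averaged -0.19 ± 0.48 (n = 5, adjusted p = 0.696). Cd55, which dissociates C3-cleaving enzymes, averaged -0.16 ± 0.35 (n = 4, adjusted p = 0.729) on its only probe with values. Among receptors, Calr, a C1q-binding chaperone, averaged -0.22 ± 0.18 (n = 5, adjusted p = 0.536) on its only tested probe. The orientation means of Calr were -0.46 for channel 1 and 0.01 for channel 2. Cd93, first described as a C1q receptor, averaged 0.23 ± 0.16 (n = 4, adjusted p = 0.561), with orientation means of 0.57 for channel 1 and -0.13 for channel 2. The probes of Itgb2, the shared chain of complement receptors CR3 and CR4, averaged -0.37 ± 0.64 (n = 5, adjusted p = 0.585) and -0.10 ± 0.73 (n = 5, adjusted p = 0.887).

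**Figure D3:**
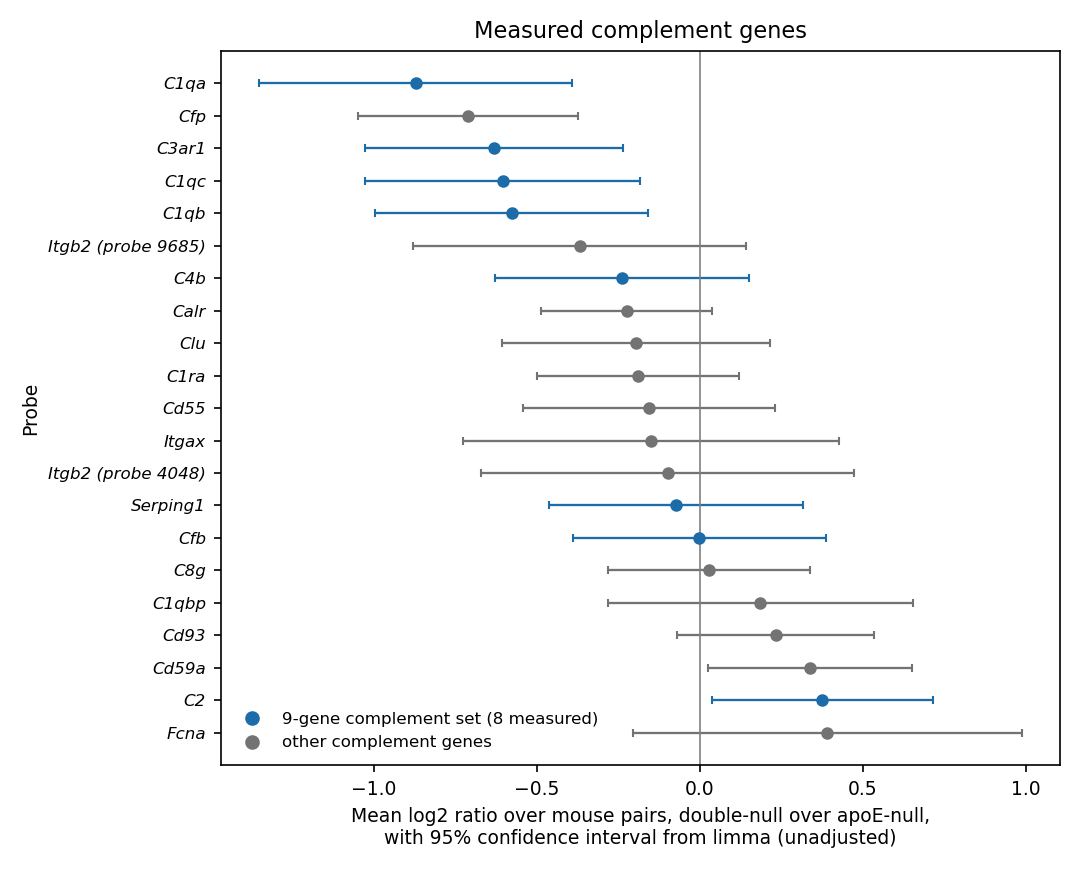
Mean log2 ratio of double-null over apoE-null RNA over mouse pairs (horizontal axis) for each tested complement probe (vertical axis), with the 95% confidence interval from limma, not adjusted for the number of probes. Blue marks the 8 measured genes of the set and grey the 13 probes of other complement genes; the 5 lowest means are those of C1qa, Cfp, C3ar1, C1qc and C1qb, and no probe passed after adjustment over 4866 probes.

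Complement is also a liver product. Of 7 hepatocyte marker probes 3 were tested. Serpina1a, an alpha-1 antitrypsin gene, was called higher (0.99 ± 0.30, above 0 in 5 of 5 pairs, limma adjusted p = 0.0252), while the albumin gene Alb averaged 0.48 ± 0.53 and the fetuin gene Ahsg -0.29 ± 1.52, neither of them called. The pair medians of the 3 probes were -0.05, 1.05, 0.65, 0.69 and 0.11. The 8 tested adipocyte probes had pair medians of 2.01, -0.03, -0.39, 0.80 and -0.43, with a median of 0.46, 1 probe below 0 and none called. Their part in the complement ratios was not tested.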

How the data were processed

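RNA of mouse aortic arch was amplified with T7 polymerase and hybridised to two-colour arrays, read on a GenePix 4000B scanner, with GeneSpring named for analysis per the labels. What the authors deposited are log2 ratios, apoE-null over double-null by the titles, whose sign was turned here. The sources used here do not give the normalization, the cause of blank cells (49.1% to 67.0% of an array) or the probe layout. Intensities were not used, and the precision of the genotype comparison is limited by the number of mouse pairs, 5. Amplification can change ratios of single transcripts.

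A pair value needed both arrays of a mouse pair, and a probe needed 3 pair values. All 4866 such probes were tested against 0 with limma 3.58.1 in R 4.3.3 (lmFit, eBayes, two-sided), with Benjamini-Hochberg adjustment over all of them and a threshold of 0.05. Mice carry separate numbers in the labels, and a p-value reflects variation among the 5 pairs. Dye effects were tested as 0.5 times the difference between orientations. On simulated ratios for this comparison (4866 probes, 10 simulations) the fit recovered 78.6% of probes changed by -1 and 28.2% of those changed by 0.5. It made 6.6 false calls per simulation on average. The share of changed probes was set in advance, and the recovery is over probes of all spreads, so it does not give the recovery for the members. The SD over pairs was 0.41 to 0.49 for the C1q chains and C3ar1, against a median of 0.30 over all tested probes. Differences from the macrophage median used an exact sign-flip permutation test, with no adjustment over the members alone.

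Genes were matched by platform symbol, updated by Entrez identifier where RefSeq (GRCm38.p6) has it, for 12009 of 12143 probes with 1 symbol. The members, the other lists and the tests were chosen with earlier results of these data known. Named are all members, the 3 other complement genes of each role group with the smallest p, the 3 likest genes of each member with values on at least 8 arrays, and Myd88; genes outside this rule (Cxcl1, Lcn2, Serpina1a, Alb, Ahsg, C4bp, Vtn, Cd46, C4a) were named after their values were seen.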

Additional observations from a re-analysis of the deposited data

Results flagged for a closer look

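Pair values of the members, of the 13 other complement probes and of the member median were searched for 1 pair far from the rest, in 21 groups of 4 or 5 values, of which chance marks about 1 in 20. The Cfb value of pair 3, -0.76, lay far below the other 4 pairs, which were between -0.0022 and 0.27. The clusterin (Clu) value of pair 1, -1.02, lay far below its other pairs, which were between -0.14 and 0.18, and both arrays of that pair read low (-1.05 and -0.98).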

How the results depend on the processing

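The count of complement members called was 0 in 19 of 20 alternative settings. It was 1 in the array-level fit with a dye term, where C1qa had a log2 ratio of -0.95, called at an adjusted p under 0.05; over all alternatives the adjusted p of C1qa ranged between 0.0320 and 0.369. Of the other complement genes 1, Cfp, passed at an adjusted p under 0.10, a looser threshold that no member passed. C1qa, C1qb, C1qc, C2, C3ar1 and C4b kept their sign in every setting in which they had a value. The sign of Cfb was positive where channel 2 held double-null RNA (0.058), with arrays centred (0.031) and with arrays centred and scaled (0.024), and leaving out 1 pair gave -0.069 to 0.19. The sign of Serping1 was positive in the male pairs alone (0.22), and leaving out 1 pair gave -0.21 to 0.038. The difference of C4b from the macrophage median lay between -0.11 and 0.30 when 1 pair was left out. The causes were not tested. Over all probes, 38 calls became 0 without pair 4, 2, 5, 11 and 25 without pairs 2, 3, 1 and 5, 59 and 119 using only arrays of one orientation (double-null in channel 1, then 2), 35 in the array-level fit with the pair as a random block, 73 in that fit with a dye term added, and 4 without probes that have a dye effect, the last chosen after seeing the data, as was the test of pair 5. Blank cells limit C1qa to 3 pairs and C2 and C4b to 4.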

Other observations

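C1qb and C1qc adjoin on chromosome 4 and differed by a root mean square of 0.47 over 10 arrays, which placed C1qc 85th by likeness to C1qb and C1qb 39th by likeness to C1qc. C3ar1, on chromosome 6, was 9th by likeness to C1qb (0.30) and 1st by likeness to C1qc (0.26). C1qa, next to C1qc, had too few arrays to be compared. C2 and Cfb adjoin on chromosome 17 and differed by 0.63 over 9 arrays, with Cfb 1248th among genes by likeness to C2. Arrays of the same pair differed by a median of 0.26 over 36 comparisons of the members and 0.31 over all tested probes.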
